A study of Mus musculus with 12 samples.

Results

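The naive pluripotency transcription factors are 10 of the 24627 genes counted in this RNA-seq experiment, chosen by name: *Zfp42*, *Klf2*, *Klf4*, *Klf5*, *Esrrb*, *Tfcp2l1*, *Nanog*, *Tbx3* and *Prdm14*, which are autosomal, and *Nr0b1*, which is 1 of the 1071 X-linked genes. RNA came from male J1 mouse embryonic stem (ES) cells in which a doxycycline (DOX)-inducible TetO promoter drives *Xist* from its own locus on the only X chromosome. *Xist* FL makes the full-length RNA, *Xist* ΔA lacks the A repeat and *Xist* ΔB+C, a CRISPR clone derived from *Xist* FL, lacks the B and C repeats. Cells of each line were collected at day 2 of differentiation by LIF withdrawal, after culture in 1.5 μg/ml DOX or in none (noDOX), and 2 libraries were made for each of the 6 groups. The TetO promoter and LIF withdrawal are thus shared by every group, each genotype is represented by a single line, and the fraction of cells that induced *Xist* was not analysed here.

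Mouse ES cells in the naive state resemble the inner cell mass of the blastocyst, and LIF, acting through STAT3, helps to hold them there. A network of transcription factors that activate one another keeps this state. On withdrawal of LIF, the network is shut down as cells pass through a formative state towards the germ layers, so its transcripts are commonly read as a measure of how far a culture has left naive pluripotency. Because the only X chromosome of a male cell is the one that induced *Xist* coats, an X-linked member of the network lies on the chromosome being silenced and the autosomal members do not.

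*Nr0b1* encodes DAX1, an orphan nuclear receptor that lies between 86191764 and 86195947 on the plus strand of chromosome X (GENCODE vM21, mm10). *Zfp42* (chromosome 8, 43295063 to 43306980, minus strand) encodes REX1, a zinc finger protein widely used to mark naive cells, and *Nanog* (chromosome 6, 122707489 to 122714633, plus strand) encodes a homeodomain factor. The 250 bases before the RefSeq start of these 3 genes are shown to set the X-linked member beside an autosomal member that was higher and one that was lower with DOX in *Xist* FL. They are RefSeq sequences of GRCm38.p6, written 5′ to 3′ on the strand of the gene, from chr8:43307010-43307259 (minus), chr6:122707239-122707488 (plus) and chrX:86191525-86191774 (plus). The RefSeq start is the base that follows each range on the strand of the gene. It differs from the start given by GENCODE for *Zfp42* and *Nr0b1*. Capitals mark matches, on either strand, to a Krüppel-like factor box (GGGNGTGG), a POU factor box (TTTGCAT) or a TATA box (TATAAA), motifs picked after the sequences had been looked at.
Zfp42: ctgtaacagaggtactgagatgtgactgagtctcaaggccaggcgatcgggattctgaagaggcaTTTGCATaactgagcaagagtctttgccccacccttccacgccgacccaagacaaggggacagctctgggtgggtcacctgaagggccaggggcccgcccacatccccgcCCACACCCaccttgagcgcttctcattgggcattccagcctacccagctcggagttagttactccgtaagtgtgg
Nanog: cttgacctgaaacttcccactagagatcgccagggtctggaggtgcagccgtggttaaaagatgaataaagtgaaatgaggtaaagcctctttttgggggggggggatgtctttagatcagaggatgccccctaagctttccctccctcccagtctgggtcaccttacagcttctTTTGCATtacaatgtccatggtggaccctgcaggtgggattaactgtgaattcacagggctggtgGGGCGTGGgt
Nr0b1: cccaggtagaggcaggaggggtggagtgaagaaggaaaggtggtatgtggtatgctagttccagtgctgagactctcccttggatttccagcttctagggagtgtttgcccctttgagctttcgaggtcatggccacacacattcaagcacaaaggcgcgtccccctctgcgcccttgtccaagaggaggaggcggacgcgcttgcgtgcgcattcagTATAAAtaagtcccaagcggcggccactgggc

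The *Zfp42* sequence held a KLF box that began 75 bases, and a POU box that began 185 bases, before the start. In *Nanog* they began 10 and 75 bases before it. RefSeq holds a second *Nanog* start, not printed, whose range (chr6:122707315-122707564) overlaps the first and has KLF boxes 86 and 52 bases and the POU box 151 bases before it. The *Nr0b1* sequence held neither box, and had a TATA box beginning 32 bases before the start. This is not particular to the X-linked member. Of the autosomal members not printed, *Klf2*, *Klf4* and both *Esrrb* entries held neither box as well. *Tfcp2l1* held 2 KLF boxes, no POU box and a TATA box 28 bases before its start. Of 32851 RefSeq promoters of this length, 15.9% held the KLF box, 4.12% the POU box and 12.4% the TATA box. A match or its absence is a description of these letters, and binding was not tested. Of the 10 members, 7 had an entry in the promoter table, and *Klf5*, *Tbx3* and *Prdm14* were not among them.

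The libraries held 31337490 to 41240470 counts. *Xist* was between 2.48 and 8.27 CPM, the usual scaling of counts by library size, in the 6 noDOX libraries. In the 6 DOX libraries it was between 570 and 1790 CPM, so that it was low or high as each label says. Its level differed between lines. With DOX it was at 869 and 908 CPM in *Xist* FL, 722 and 570 CPM in *Xist* ΔA and 1790 and 1160 CPM in *Xist* ΔB+C. Without DOX it was at 6.35 and 8.27 CPM in *Xist* ΔA, against 2.48 to 3 CPM in the other lines. The part of these differences in the members' responses was not tested. X-linked genes took 1.64% to 2.93% of all counts. Replicate 2 of *Xist* ΔB+C DOX is a low-input library of 100 ng of RNA, against 1000 ng in the rest. Libraries with the same replicate number deviated from their group means together, with a correlation across genes of 0.405 to 0.838 for the 15 pairs of groups. These were bulk libraries, in which fewer cells expressing a gene and less RNA per cell cannot be told apart.

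All 10 members were detected in every library, at very different levels. Per kilobase of exon, the median over the 12 libraries was 84.9 CPM for *Zfp42*, 57 for *Nanog* and 44.7 for *Klf2*. It was 10.8 for *Nr0b1*, 9.81 for *Klf5* and 7.03 for *Esrrb*, an orphan nuclear receptor. *Tfcp2l1* (2.61), *Klf4* (2.22), *Tbx3* (1.7) and *Prdm14* (0.711) were lowest on this scale. The ranges of neighbours in this order overlapped in every case. *Prdm14*, which encodes a PR domain protein, had only 25 to 145 counts per library and reached 1 CPM in 8 of the 12. Between the lowest and the highest library, *Nr0b1* varied 7.95-fold, *Prdm14* 7.21-fold and *Esrrb* 6.52-fold, against 2.36-fold for *Nanog* and 2.08-fold for *Klf5*. The genome also holds pseudogenes of *Nanog* and *Zfp42* and an antisense RNA overlapping *Tbx3*, *Tbx3os1*, which are not genes of the count files, and reads they might share with these members cannot be told apart.

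**Figure D1:**
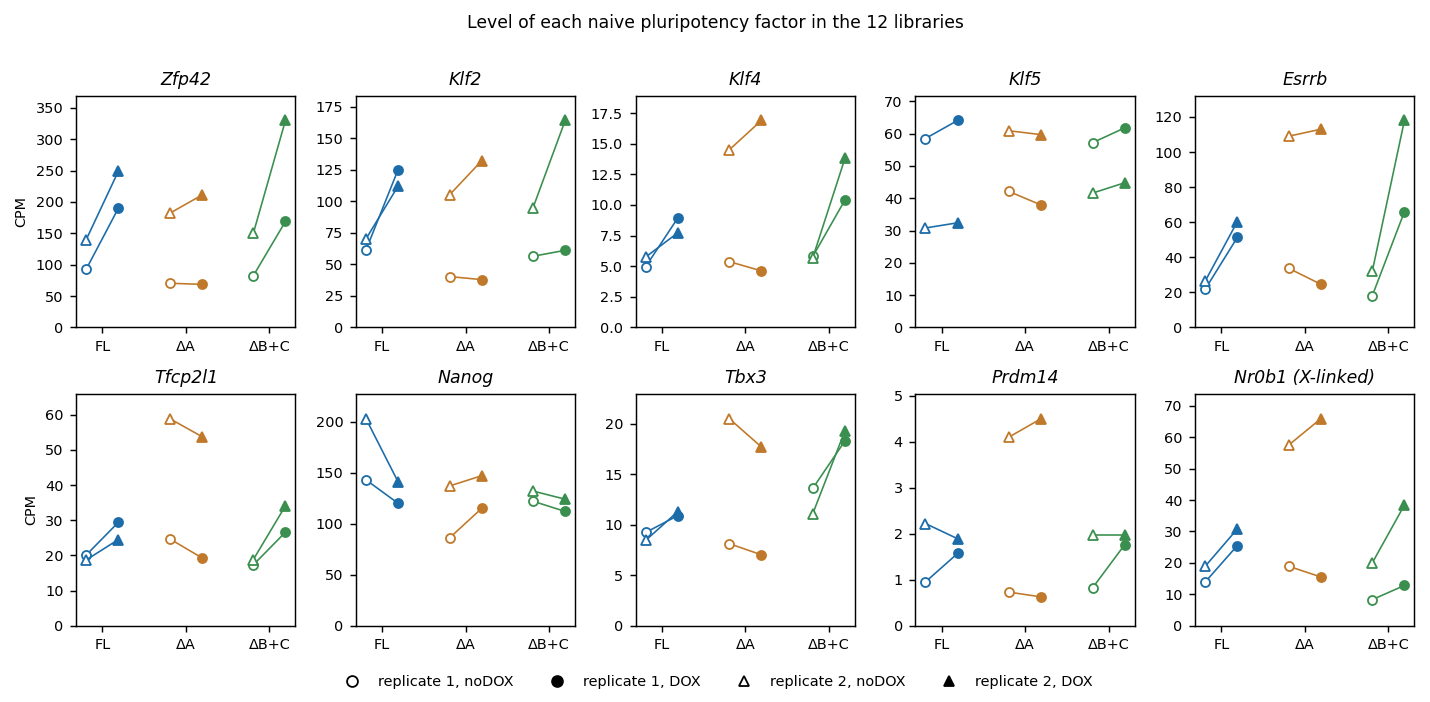
Level of each of the 10 factors, in CPM, in the 12 libraries, 1 panel per gene with its own axis. Open symbols are noDOX and filled symbols DOX libraries, circles replicate 1 and triangles replicate 2, and lines join libraries of the same line and replicate number. In *Xist* ΔA the 2 replicates lie far apart with and without DOX (*Esrrb* 33.7 and 109 CPM without it), while in *Xist* FL and *Xist* ΔB+C the filled symbols of *Esrrb* and *Zfp42* all lie above the open ones.

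In *Xist* ΔA the members differed more between the replicates than between DOX and noDOX. In *Xist* ΔA without DOX, *Esrrb* was at 33.7 CPM in replicate 1 and 109 CPM in replicate 2, and with DOX at 24.6 and 113 CPM. *Nr0b1* was at 18.9 and 57.5 CPM without DOX and at 15.5 and 65.9 CPM with it. Replicate 2 was the higher one for all 10 members of *Xist* ΔA in both conditions, between 1.27-fold (*Nanog*, with DOX) and 7.21-fold (*Prdm14*, with DOX). In *Xist* FL the replicates were closer, and *Esrrb* was at 21.8 and 26.4 CPM without DOX and at 51.3 and 60.3 CPM with it. *Klf5* went the other way there, at 58.5 and 30.8 CPM without DOX and at 64.1 and 32.4 CPM with it.

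With the replicate number as a block over all lines, 5 of the 10 members were higher in replicate 2 at an adjusted p under 0.05 in edgeR's quasi-likelihood test, against 22.7% of the 13191 genes tested. They were *Zfp42* (log2 (fold change) 0.96), *Esrrb* (1.01), *Nanog* (0.33), *Prdm14* (1.34) and *Nr0b1* (1.22). Because the size of this difference varied between lines, a fit with a separate replicate difference for each line was added after the data had been seen. In that fit all 10 members were higher in replicate 2 of *Xist* ΔA, where 15.8% of the genes tested were. The difference was larger in *Xist* ΔA than the mean of the other lines for 9 of the 10 members (background 4.51%), by between 0.79 (*Zfp42*) and 1.98 (*Prdm14*) on the log2 scale. For *Nanog* it was larger by 0.26 (adjusted p = 0.177). The spread behind this test is that between the noDOX and DOX libraries of the same number. No source used here says whether those libraries came from 1 starting culture, so the difference may be that between 2 cultures of each line.

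**Figure D2:**
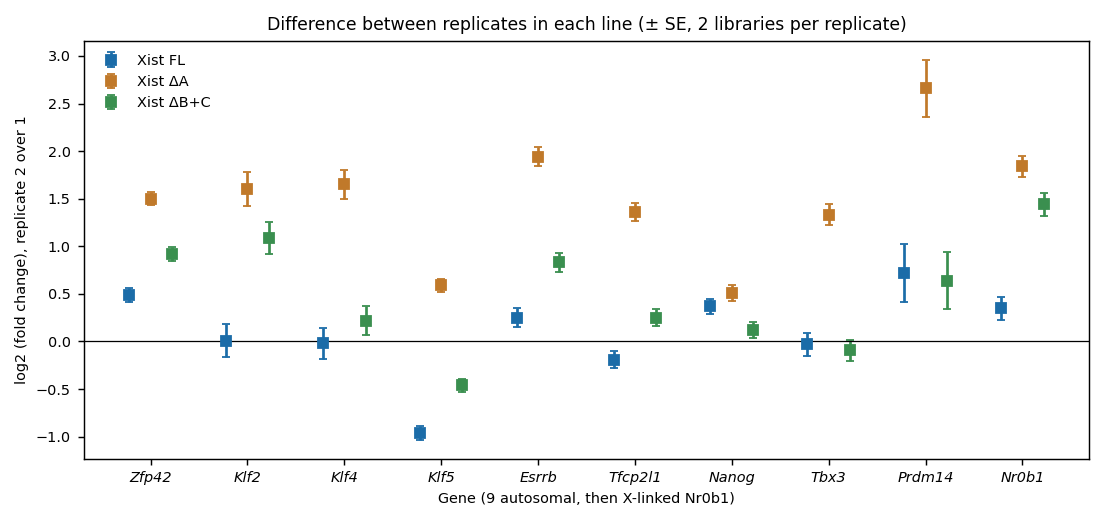
Difference of replicate 2 from replicate 1, as log2 (fold change) ± SE, for each factor in each line, from the fit with a separate replicate difference for each line. All 10 points of *Xist* ΔA lie above 0, from 0.51 for *Nanog* to 2.66 for *Prdm14*, while *Klf5* lies below 0 in *Xist* FL (-0.96) and *Xist* ΔB+C (-0.46).

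Markers of the first mesendoderm cells, among those of other cell types, differed between the replicate numbers too. The summed level of *T*, *Eomes*, *Mixl1* and *Gsc* in *Xist* FL was 241 and 175 CPM without DOX and 133 and 36.4 CPM with DOX. For *Xist* ΔB+C the sums were 202 and 108 CPM without DOX and 132 and 38.8 CPM with it. In *Xist* ΔA it was 47.5 and 37.4 CPM without DOX and 62.2 and 40.1 CPM with DOX. In all 6 groups the sum was lower in replicate 2, although *Eomes* was higher there in *Xist* FL without DOX (61.2 and 72.1 CPM). With the replicate number as a block over all lines, the 3 of these 4 genes that passed the filter were called lower in replicate 2. Most members were higher there. Of the 13191 genes tested, 3106 were called lower in replicate 2. Summed markers of primitive endoderm (21.4 to 55.6 CPM), neuroectoderm (66.8 to 156), fibroblasts (10.4 to 54.2), trophoblast (4.85 to 19.7) and 2-cell-like cells (0.175 to 4.17) varied over the ranges given. In the same fit *Sox1* (1.22) and *Pax6* (0.54) were higher and *Nes* (-0.95) lower in replicate 2, moves that the neuroectoderm sum hides. Of the markers tested, 2 of 4 for fibroblasts, 1 of 6 for primitive endoderm and 0 of 2 for trophoblast were called lower. The 2-cell-like sum was higher in replicate 2 of each group, and its genes did not pass the filter. The part of any of these markers in the members' differences was not tested.

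DOX against noDOX in each line shows how the members stood when each form of *Xist* was induced in differentiating cells. In *Xist* FL both DOX libraries lay above both noDOX libraries for 7 of the 10 members, against 22.5% of all genes tested, and below them for *Nanog* alone (25.7%). In *Xist* ΔB+C both lay above for 5 members (19.7%) and below for 0 (23.3%). In *Xist* ΔA the groups overlapped for all 10 (10.9% of genes lay above and 12.5% below). Compared within replicate numbers, 8 members were higher with DOX in both pairs in *Xist* FL (38% of genes), 8 in *Xist* ΔB+C (36.2%) but only *Nanog* in *Xist* ΔA (32.4%).

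Despite these directions, 0 of the 10 members passed the threshold in any line in edgeR's test on group means, where 1.24% of genes were called for *Xist* FL, 2.94% for *Xist* ΔB+C and 0.00758% for *Xist* ΔA. DESeq2 and limma-voom called 0 in each line. At an unadjusted p under 0.05 in edgeR's test on group means there were 0 members in *Xist* FL, 0 in *Xist* ΔA and 1, *Esrrb*, in *Xist* ΔB+C. Of the 13191 genes tested, 1780, 149 and 2480 were under it in these lines. In that test the differences between replicates count as error. With 1 replicate difference common to all lines as a block, 13.9% of genes were called for *Xist* FL and 21.9% for *Xist* ΔB+C, where *Zfp42* was the single member called. Given a replicate difference for each line, 8 members were called for *Xist* FL (27.5% of genes), 6 for *Xist* ΔB+C (35%) and 0 for *Xist* ΔA (0.152%). In *Xist* ΔA 2 members, *Nanog* and *Tfcp2l1*, had an unadjusted p under 0.05 in this last fit. It has 3 residual degrees of freedom and was chosen after the data had been seen. Each verb of change in the comparisons with DOX therefore refers to this fit unless group means are named. The value on group means is given beside it. Leaving out 1 library of a line leaves the response of that line in this fit to 1 pair. The error then comes from the other lines, so a call kept or gained does not show that the pairs agree.

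**Figure D3:**
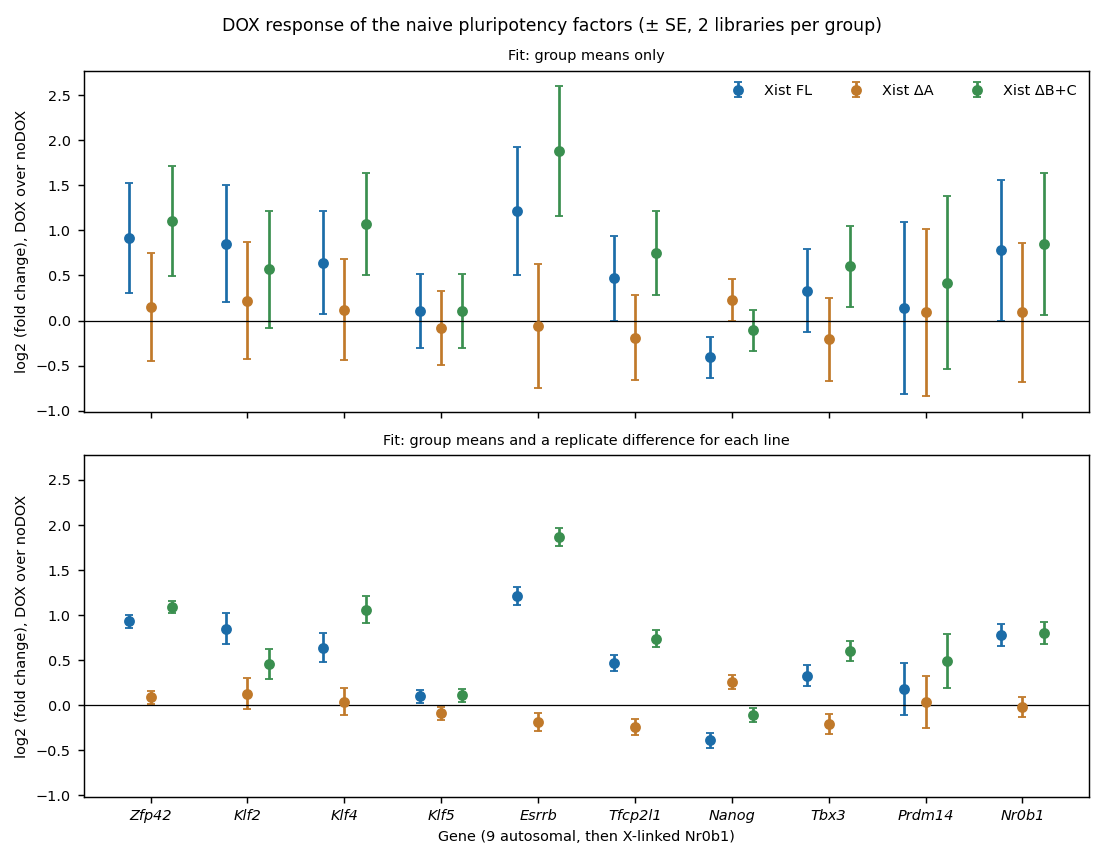
DOX response, as log2 (fold change) ± SE, of each factor in the 3 lines, from the fit on group means (top) and the fit with a replicate difference for each line (bottom). The estimates are alike in both panels while the error bars are shorter at the bottom, and *Esrrb* is highest in *Xist* ΔB+C (1.88 and 1.87) and *Xist* FL (1.21).

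*Esrrb* and *Tfcp2l1*, a factor induced by STAT3, are activators of the naive network. *Esrrb* went from 21.8 and 26.4 CPM to 51.3 and 60.3 CPM with DOX in *Xist* FL and from 18.1 and 32.1 CPM to 66 and 118 CPM in *Xist* ΔB+C. It was thus 2.36- and 2.28-fold higher in the *Xist* FL pairs and 3.64- and 3.68-fold higher in the *Xist* ΔB+C pairs, while in *Xist* ΔA the ratios were 0.731 and 1.03. On group means the log2 (fold change) for *Xist* FL was 1.21 ± 0.71 (SE, adjusted p = 0.509), that for *Xist* ΔB+C 1.88 ± 0.72 (adjusted p = 0.201) and that for *Xist* ΔA -0.06 ± 0.69 (adjusted p = 1). Once each line had its own replicate difference, *Esrrb* rose in *Xist* FL by 1.21 ± 0.10 (adjusted p = 1.16e-05) and in *Xist* ΔB+C by 1.87 ± 0.10 (adjusted p = 7.41e-07), and was at -0.18 ± 0.10 in *Xist* ΔA (adjusted p = 0.554). When 1 *Xist* FL library was left out, the value of that line in that fit was 1.19 or 1.24, each from 1 remaining pair.

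*Tfcp2l1* showed a smaller difference of the same kind. It was at 20.1 and 18.7 CPM without DOX and 29.4 and 24.5 CPM with DOX in *Xist* FL, and at 17.3 and 18.8 CPM and 26.6 and 34.1 CPM in *Xist* ΔB+C, with no overlap. In *Xist* ΔA it was at 24.7 and 58.9 CPM without DOX and 19.3 and 53.8 CPM with DOX, the 2 replicates lying much farther apart than the conditions. In the fit with a replicate difference for each line it rose by 0.47 ± 0.09 (adjusted p = 0.00269) in *Xist* FL and by 0.74 ± 0.09 (adjusted p = 9.38e-05) in *Xist* ΔB+C, and was at -0.24 ± 0.09 (adjusted p = 0.382) in *Xist* ΔA. On group means the values of these lines were 0.47 ± 0.47 (adjusted p = 0.714), 0.75 ± 0.47 (adjusted p = 0.438) and -0.19 ± 0.47. The call in *Xist* FL was lost without replicate 1 of the noDOX libraries (0.39, adjusted p = 0.0766) or of the DOX libraries (0.39, adjusted p = 0.0798).

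*Zfp42* about doubled in every pair of the lines with an A repeat. It went from 92.8 and 140 CPM to 190 and 249 CPM in *Xist* FL and from 82.4 and 150 CPM to 169 and 330 CPM in *Xist* ΔB+C. Pair ratios were 2.05 and 1.78 in the former and 2.05 and 2.2 in the latter. In *Xist* ΔA it was at 70.4 and 182 CPM without DOX and at 68.7 and 211 CPM with DOX, with pair ratios on both sides of 1 and a log2 (fold change) of 0.15 ± 0.60 on group means. The log2 (fold change) on group means was 0.92 ± 0.61 (adjusted p = 0.567) in *Xist* FL and 1.10 ± 0.61 (adjusted p = 0.375) in *Xist* ΔB+C. With the common replicate block it was 1.09 ± 0.30 (adjusted p = 0.0478) in *Xist* ΔB+C, and with a replicate difference for each line *Zfp42* rose by 0.93 ± 0.07 (adjusted p = 5.28e-06) in *Xist* FL and 1.09 ± 0.07 (adjusted p = 1.28e-06) in *Xist* ΔB+C. When 1 *Xist* FL library was left out, the value of that line in the last fit was 0.83 or 1.04, again from 1 remaining pair.

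The 3 Krüppel-like factors, zinc finger activators that share target sites, did not behave alike. *Klf2* was at 61.3 and 70.1 CPM without DOX and 125 and 112 CPM with DOX in *Xist* FL, and at 56.4 and 94.9 CPM and 61.1 and 164 CPM in *Xist* ΔB+C. It rose by 0.85 ± 0.17 (adjusted p = 0.0121) in *Xist* FL, whereas in *Xist* ΔB+C, where the groups overlapped and pair ratios were 1.08 and 1.72, its value was 0.46 ± 0.17 (adjusted p = 0.0802). *Klf4*, which responds to LIF, was at 4.97 and 5.75 CPM without DOX and 8.94 and 7.73 CPM with DOX in *Xist* FL, and at 5.8 and 5.7 CPM and 10.4 and 13.8 CPM in *Xist* ΔB+C. All DOX libraries of these lines were above the noDOX ones, and *Klf4* rose by 0.64 ± 0.16 (adjusted p = 0.0107) and 1.06 ± 0.15 (adjusted p = 0.000285). *Klf5* was not called in any line, at 58.5 and 30.8 CPM against 64.1 and 32.4 CPM in *Xist* FL and 57.2 and 41.6 CPM against 61.8 and 44.8 CPM in *Xist* ΔB+C, with values of 0.10 ± 0.07 and 0.11 ± 0.07. In *Xist* ΔA the 3 values were 0.13 for *Klf2*, 0.04 for *Klf4* and -0.09 for *Klf5*, none of them called. On group means *Klf2* was at 0.85 ± 0.65 (adjusted p = 0.629) in *Xist* FL and 0.57 ± 0.65 (adjusted p = 0.699) in *Xist* ΔB+C. The values of *Klf4* were 0.64 ± 0.57 (adjusted p = 0.685) and 1.07 ± 0.57 (adjusted p = 0.359), and those of *Klf5* 0.11 ± 0.41 in each.

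Some calls of the Krüppel-like factors depended on single libraries. Leaving out any 1 of the 4 *Xist* FL libraries ended the *Klf4* call in that line, with an adjusted p of 0.215 and 0.0557 without noDOX replicates 1 and 2 and 0.221 and 0.056 without DOX replicates 1 and 2. *Klf2* passed in *Xist* ΔB+C without replicate 1 of its noDOX (0.79, adjusted p = 0.0313) or DOX libraries (0.79, adjusted p = 0.0332) and without any 1 *Xist* FL library (0.46, adjusted p between 0.0279 and 0.0296). Without the low-input library its value there was 0.12 in the same fit and -0.31 on group means.

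*Nanog*, a central activator of the network, was the member that was lower with DOX in both pairs of *Xist* FL. It was at 143 and 203 CPM without DOX and at 120 and 141 CPM with it. Both DOX libraries lay below both noDOX ones, the highest DOX library only slightly below the lowest noDOX one. The log2 (fold change) was -0.41 ± 0.23 on group means (adjusted p = 0.5) and -0.39 ± 0.12 with the common replicate block (adjusted p = 0.0555). With a replicate difference for each line *Nanog* fell by 0.39 ± 0.08 (adjusted p = 0.00476), a call lost without replicate 2 of the noDOX libraries (-0.26, adjusted p = 0.259) or of the DOX libraries (-0.26, adjusted p = 0.232). In *Xist* ΔB+C it was at 122 and 132 CPM without DOX and 112 and 124 CPM with it (-0.11 ± 0.08, adjusted p = 0.333), and in *Xist* ΔA at 86 and 137 CPM and 115 and 147 CPM (0.26 ± 0.08, adjusted p = 0.314).

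*Tbx3*, a T-box factor, was at 9.23 and 8.45 CPM without DOX and 10.9 and 11.3 CPM with DOX in *Xist* FL, and at 13.6 and 11.1 CPM and 18.3 and 19.3 CPM in *Xist* ΔB+C. The groups were apart in both lines, and *Tbx3* rose by 0.33 ± 0.12 in *Xist* FL, with an adjusted p that rounds to 0.05, and by 0.60 ± 0.11 in *Xist* ΔB+C (adjusted p = 0.00125). The call in *Xist* FL was lost when any 1 library of *Xist* FL or *Xist* ΔA was left out, with adjusted p between 0.0841 and 0.464. On group means its values were 0.33 ± 0.46 (adjusted p = 0.801) and 0.60 ± 0.45 (adjusted p = 0.526). In *Xist* ΔA it was at 8.12 and 20.5 CPM without DOX and 7.02 and 17.7 CPM with DOX (-0.21 ± 0.11, adjusted p = 0.556). *Prdm14* was at 0.95 and 2.22 CPM without DOX and 1.57 and 1.89 CPM with DOX in *Xist* FL, and at 0.821 and 1.96 CPM and 1.76 and 1.96 CPM in *Xist* ΔB+C. Its groups overlapped, and with values of 0.18 ± 0.29 and 0.49 ± 0.30 no difference was detectable at this depth. On group means they were 0.14 ± 0.95 and 0.42 ± 0.96. In *Xist* ΔA *Prdm14* was at 0.729 and 4.1 CPM without DOX and 0.625 and 4.5 CPM with DOX (0.04 ± 0.29).

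*Nr0b1*, the X-linked member, was higher with DOX in the lines where *Esrrb*, *Zfp42*, *Klf4*, *Tfcp2l1* and *Tbx3* were. In *Xist* FL it was at 13.9 and 18.9 CPM without DOX and at 25.5 and 30.8 CPM with it. In *Xist* ΔB+C it was at 8.29 and 20 CPM without DOX and at 12.8 and 38.4 CPM with it. The *Xist* FL groups did not overlap and those of *Xist* ΔB+C did, although each *Xist* ΔB+C pair was higher with DOX, by 1.54- and 1.92-fold. In *Xist* ΔA the pair ratios were 0.823 and 1.15. The log2 (fold change) on group means for *Xist* FL was 0.78 ± 0.78 (adjusted p = 0.717), that for *Xist* ΔB+C 0.85 ± 0.79 (adjusted p = 0.617) and that for *Xist* ΔA 0.09 ± 0.77 (adjusted p = 1). In the fit with its own replicate difference for each line, *Nr0b1* rose by 0.78 ± 0.12 (adjusted p = 0.000624) in *Xist* FL and by 0.80 ± 0.12 (adjusted p = 0.000499) in *Xist* ΔB+C, and was at -0.02 ± 0.11 in *Xist* ΔA (adjusted p = 0.974). When 1 *Xist* FL library was left out, the value of that line lay between 0.70 and 0.88, from 1 remaining pair. Without the low-input library the value in *Xist* ΔB+C was 0.62 in this fit, also from 1 pair. On group means, where the lone replicate 1 is then set against both noDOX libraries, it was -0.14.

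Among X-linked genes *Nr0b1* was at the upper end. The median log2 (fold change) of the 464 X-linked genes tested was -0.85 for *Xist* FL, -0.78 for *Xist* ΔB+C and -0.14 for *Xist* ΔA. In *Xist* FL, *Nr0b1* had a higher value than each of the other 463. Of the 464, 15 lay above 0. In *Xist* ΔB+C 461 of them had a lower value, and the 2 with a higher one were *Rhox6* and *Rhox9*, homeobox genes of the X-linked *Rhox* cluster. In *Xist* ΔA, 415 had a lower and 48 a higher value than its 0.09. Its position in this order describes estimates that have large errors on group means.

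**Figure D4:**
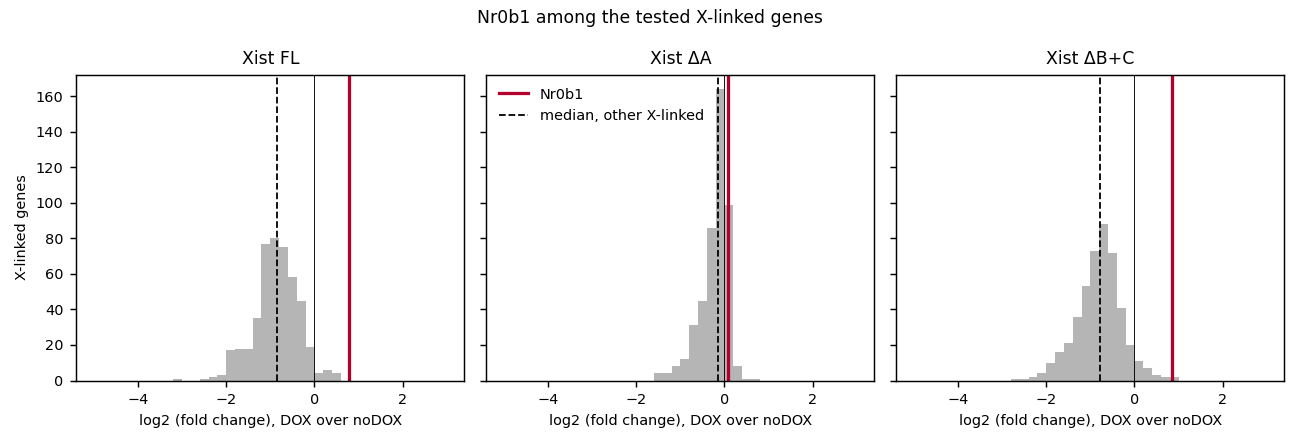
Number of X-linked genes by log2 (fold change) with DOX, on group means, in each line, with *Nr0b1* and the median of the other X-linked genes marked. In *Xist* FL and *Xist* ΔB+C most genes lie below 0 around medians of -0.85 and -0.78 and *Nr0b1* stands at the right end (0.78 and 0.85), and in *Xist* ΔA the genes lie around -0.14.

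The nearest X-linked genes tested, 3 on either side of *Nr0b1* and chosen after values had been seen, had negative values with DOX. *Gk*, *Tab3* and *Dmd* lay 415, 557 and 986 kb from it at lower coordinates. At higher coordinates the nearest were much farther, *Pola1* at 7108820, *Pcyt1b* at 7458916 and *Pdk3* at 7568660 bases. Their values on group means lay between -1.31 (*Gk*) and -0.77 (*Pola1*) in *Xist* FL. They were between -1.25 (*Pdk3*) and -0.74 (*Tab3*) in *Xist* ΔB+C. In *Xist* ΔA they were between -0.37 (*Tab3*) and -0.01 (*Pola1*). These values are given as a description, with no test of *Nr0b1* against them.

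The level of *Nr0b1* across libraries was close to that of several autosomal members. Over the 12 libraries, log2 (CPM + 1) of *Nr0b1* had a Pearson correlation of 0.879 with *Tfcp2l1*, 0.849 with *Esrrb*, 0.827 with *Prdm14* and 0.68 with *Zfp42*, but 0.221 with *Nanog* and 0.0768 with *Klf5*. For deviations from the group means, which hold only the replicate differences of the 6 groups, the values were 0.987 with *Zfp42*, 0.983 with *Klf2*, 0.969 with *Esrrb* and 0.0465 with *Klf5*. These libraries share lines and replicate numbers, so the values are a description. Of all other genes tested, the 5 most like *Nr0b1* by this correlation were *Itgal* (0.987), *Sall1* (0.978), *Adamts14* (0.977), *Ppfia3* (0.966) and *Cpne5* (0.964), all autosomal. The 5 most like the mean of the 9 autosomal members were *Prdm1* (0.962), *Nkain4* (0.958), *Nid1* (0.948), *H2-M5* (0.934) and *Tns3* (0.932). With Spearman's correlation 3 of each 5 stayed, *Gtsf1l* and *Isoc2a* taking the place of *Itgal* and *Cpne5*, and *Manba* and *Rmnd5b* that of *Nid1* and *Tns3*.

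The test of the difference in response asks whether the lines responded to DOX unlike each other. On group means the mean response of *Xist* FL and *Xist* ΔB+C exceeded that of *Xist* ΔA by 1.60 ± 0.86 for *Esrrb*, 0.86 ± 0.74 for *Zfp42* and 0.72 ± 0.95 for *Nr0b1*. At an unadjusted p under 0.05 there were 0 members, against 1695 of the 13191 genes tested. At the threshold 0 of the 10 members were called (0.379% of genes), and 0 by DESeq2 and limma-voom. With a replicate difference for each line 7 were called, against 24.2% of genes. The response was higher than in *Xist* ΔA for *Esrrb* (1.72 ± 0.12, adjusted p = 2.48e-05), *Zfp42* (0.92 ± 0.09), *Tfcp2l1* (0.84 ± 0.11), *Klf4* (0.81 ± 0.19), *Nr0b1* (0.81 ± 0.14) and *Tbx3* (0.68 ± 0.14), and lower for *Nanog* (-0.51 ± 0.10). *Klf2* (0.52 ± 0.21, adjusted p = 0.122), *Klf5* (0.20 ± 0.08, adjusted p = 0.0963) and *Prdm14* (0.30 ± 0.35) were not called. Without replicate 1 of *Xist* ΔA, noDOX or DOX, the calls of *Klf4* (0.62, adjusted p = 0.134) and *Nanog* (-0.35, adjusted p = 0.122) were lost, and without any 1 *Xist* ΔA library that of *Tbx3* (adjusted p between 0.0613 and 0.0652), whereas *Klf2* was called without replicate 1 of *Xist* ΔB+C noDOX (0.68, adjusted p = 0.0442) or DOX (0.68, adjusted p = 0.0466). Between *Xist* ΔB+C and *Xist* FL, 0 members differed in response in edgeR on group means, in DESeq2, in limma-voom or with a replicate difference for each line, where 0.0152% of all genes did. In that last fit *Esrrb* (0.66 ± 0.14, adjusted p = 0.206) and *Nanog* (0.28 ± 0.12, adjusted p = 0.476) had an unadjusted p under 0.05, and on group means 0 members did, against 106 of the 13191 genes tested. The other differences, *Xist* ΔB+C minus *Xist* FL, were 0.42 for *Klf4*, 0.31 for *Prdm14*, 0.27 for *Tfcp2l1*, 0.27 for *Tbx3*, 0.16 for *Zfp42*, 0.02 for *Nr0b1*, 0.01 for *Klf5* and -0.39 for *Klf2*. A difference that misses the threshold with 2 libraries per group does not show that these lines responded alike.

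Without DOX the lines could be compared with little *Xist* present. *Esrrb* was at 33.7 and 109 CPM in *Xist* ΔA against 21.8 and 26.4 CPM in *Xist* FL and 18.1 and 32.1 CPM in *Xist* ΔB+C. Both *Xist* ΔA libraries were above those of the other lines, but replicate 1 only slightly. For *Nr0b1* replicate 1 of *Xist* ΔA, at 18.9 CPM, was no higher than replicate 2 of *Xist* FL. Relative to *Xist* FL the log2 (fold change) in *Xist* ΔA was 1.56 ± 0.71 (adjusted p = 0.206) for *Esrrb*, 1.21 ± 0.79 (adjusted p = 0.369) for *Nr0b1* and 1.11 ± 0.48 (adjusted p = 0.18) for *Tfcp2l1*. It was 0.88 for *Klf4*, 0.69 for *Tbx3*, 0.60 for *Prdm14*, 0.21 for *Klf5*, 0.15 for *Klf2* and 0.12 for *Zfp42*. None of the 10 members was called by edgeR in this comparison, where 9.84% of genes were. At an unadjusted p under 0.05 were 2, *Nanog* and *Tfcp2l1*, against 3416 of the 13191 genes tested. *Nanog* was at 86 and 137 CPM in *Xist* ΔA and 143 and 203 CPM in *Xist* FL (-0.63 ± 0.23, adjusted p = 0.127), and with the common replicate block it was lower and passed the threshold (-0.64 ± 0.12, adjusted p = 0.00279, where 33.4% of genes were called). *Xist* ΔB+C differed from *Xist* FL by between -0.44 (*Nanog*) and 0.49 (*Tbx3*), with 0 members called (0.0227% of genes) and 0 at an unadjusted p under 0.05 (771 of all genes). Between those ends were *Klf2* (0.20), *Klf5* (0.15), *Klf4* (0.10), *Esrrb* (0.06), *Zfp42* (-0.00), *Tfcp2l1* (-0.10), *Prdm14* (-0.19) and *Nr0b1* (-0.22). Against *Xist* ΔA, *Xist* ΔB+C had 0 called (6.69%) and 1 member, *Tfcp2l1* (-1.21), at an unadjusted p under 0.05 (2984 of all genes). The others were *Esrrb* (-1.51), *Nr0b1* (-1.43), *Prdm14* (-0.79), *Klf4* (-0.78), *Tbx3* (-0.20), *Zfp42* (-0.12), *Klf5* (-0.06), *Klf2* (0.06) and *Nanog* (0.19). DESeq2 and limma-voom called 0 members in all 3 comparisons, which share libraries with each other.

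Other genes that accompany naive pluripotency had positive values with DOX in the same lines. All 12 on the list (*Dppa2*, *Dppa3*, *Dppa4*, *Dppa5a*, *Tcl1*, *Fbxo15*, *Fgf4*, *Nr5a2*, *Gbx2*, *Tet2*, *Pecam1* and *Alpl*) had a value above 0 on group means in the *Xist* FL line and in the *Xist* ΔB+C line. Their median log2 (fold change) was 0.74 in the former and 0.55 in the latter, where that of all genes tested was -0.01 and 0.00, and 0.10 in *Xist* ΔA, where that of all genes was 0.00. The lowest was 0.02 for *Dppa5a* in *Xist* ΔB+C, and 0 of them were called on group means in any line. With a replicate difference for each line 11 of them rose in *Xist* FL and 10 in the *Xist* ΔB+C line, but 0 in *Xist* ΔA. Over all genes, 13.2%, 17.2% and 0.0152% rose in these lines in that fit. *Pecam1*, a surface protein of naive cells, went from 32.9 and 48 CPM to 77.8 and 118 CPM in *Xist* FL and from 28.9 and 46.6 CPM to 73 and 142 CPM in *Xist* ΔB+C. It rose by 1.27 ± 0.08 and 1.47 ± 0.08 in that fit, with 1.27 ± 0.50 (adjusted p = 0.296) and 1.51 ± 0.50 (adjusted p = 0.145) on group means.

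Upstream of the members, the LIF receptor gene *Lifr* was the only one of 8 genes of the LIF pathway called on group means, in *Xist* ΔB+C. There it went from 23.9 and 18.8 CPM to 42.7 and 39 CPM (0.94, adjusted p = 0.0467), and in *Xist* FL it was at 21.3 and 13.2 CPM without DOX and 33.1 and 31.4 CPM with it (0.90, adjusted p = 0.082). In *Xist* ΔA it was at 23.5 and 23 CPM and 20.4 and 21.1 CPM. With a replicate difference for each line 4 of the 8 rose in each of these 2 lines, among them *Socs3*, a target of STAT3 (0.79 ± 0.13 and 0.84 ± 0.13, and on group means 0.77 ± 0.23 and 0.85 ± 0.23, not called), where 13.2% and 17.2% of all genes rose. Of the 3 core pluripotency genes, *Sox2* rose by 0.64 ± 0.06 in both lines in that fit, while *Pou5f1* was at -0.01 ± 0.06 in *Xist* FL and fell by 0.21 ± 0.06 in *Xist* ΔB+C. On group means neither was called, with 0.64 ± 0.36 and 0.65 ± 0.36 for *Sox2* and -0.01 ± 0.14 and -0.20 ± 0.14 for *Pou5f1*.

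*Rlim*, an X-linked ubiquitin ligase gene whose product marks the REX1 protein for degradation, went opposite to *Zfp42*. It was at 192 and 162 CPM without DOX and 81 and 56.7 CPM with DOX in *Xist* FL, and at 177 and 137 CPM and 72.5 and 38.7 CPM in *Xist* ΔB+C. The groups were far apart in both lines, and close in *Xist* ΔA at 165 and 125 CPM and 157 and 120 CPM. On group means the value for *Xist* FL was -1.36 (adjusted p = 0.0797, and 0.000115 with the common replicate block), and *Rlim* fell by 1.49 in *Xist* ΔB+C (adjusted p = 0.0387). These are transcript levels, and REX1 protein was not measured here.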

How the data were processed

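Bulk RNA-seq of 12 libraries (6 groups of 2, described as biological duplicates) was used. Per the submitters' processing notes and the methods of the study, the authors mapped read pairs to mm10 with TopHat2 2.1.0, counted them over exons of refFlat genes with featureCounts 1.5.1 and deposited raw counts per gene, 1 file per library, without normalization. The options stated for the counting, -C and -p, set no strand, and by default featureCounts then takes reads of both strands. Groups were taken from the sample labels. The file names of 3 noDOX replicate 1 libraries contain DOX, and the labels were followed. The members, the other gene lists and the tests were chosen with earlier results of these data known.

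Totals were 31337490 to 41240470 counts per library. A floor of 3 counts corresponds to 0.0727 to 0.0957 CPM, and covers counting error only, since PCR reads are not independent molecules. The filter kept 13191 genes that reached 1 CPM in 6 or more of the 12 libraries, all 10 members among them. CPM values were scaled with TMM factors from tested autosomal genes (0.978 to 1.02). Genes were tested with edgeR 4.0.16 in R 4.3.3 (robust quasi-likelihood test, 6 group means, 6 residual degrees of freedom), with Benjamini-Hochberg adjusted p over all genes tested and a threshold of 0.05. No gene-list test was run, and correlations used log2 (CPM + 1).

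Replicate numbers in the labels were checked by correlating the differences between replicates across genes between groups. The 15 pairs of groups gave 0.405 to 0.838 (mean 0.634), above the limit of 0.1 set for pairing, so blocked values are given where they change a call. With 1 common replicate coefficient 5 residual degrees of freedom remain. A fit with 1 replicate coefficient for each line was added after the data had been seen, for the DOX comparisons and the replicate differences only, since the comparison of lines would then have no error between cultures. All 10 members are named in each comparison. Of other lists, genes past the threshold are named, at most the 3 of largest change per list and comparison, with *Rlim* and *Xist* in addition, and the 5 genes most like *Nr0b1* or the autosomal members. *Pecam1*, *Socs3*, *Sox2*, *Pou5f1*, *Dnmt3a*, *Tcf7l1*, *Rhox6* and *Rhox9* and the neighbours of *Nr0b1* were named after their values were seen.

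Alternatives were DESeq2 1.42.0, limma-voom (limma 3.58.1), the replicate block, TMM from all tested genes, library totals, no filter, a filter of 5 CPM, only the libraries compared, and each library left out. The steps were run on simulated counts with known changes. These were drawn with a replicate difference for each line, so they cannot show whether the real libraries pair in that way. Gene positions came from GENCODE vM21 and promoters from RefSeq (GRCm38.p6).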

Additional observations from a re-analysis of the deposited data

Results flagged for a closer look

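Differences between lines that passed the threshold came from the fit with a replicate difference for each line, which was chosen after the data had been seen. The response to DOX, as the mean of *Xist* FL and *Xist* ΔB+C minus *Xist* ΔA on the log2 scale, differed for 7 of the 10 factors, by 1.72 for *Esrrb*, 0.92 for *Zfp42*, 0.84 for *Tfcp2l1*, 0.81 for *Klf4*, 0.81 for *Nr0b1*, 0.68 for *Tbx3* and -0.51 for *Nanog*. The calls of *Klf4*, *Nanog* and *Tbx3* were each lost on leaving out 1 library of *Xist* ΔA. On group means none of these differences passed.

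The difference of replicate 2 from replicate 1 in *Xist* ΔA, minus its mean in *Xist* FL and *Xist* ΔB+C, passed for 9 of the 10. It was 1.98 for *Prdm14*, 1.55 for *Klf4*, 1.40 for *Tbx3*, 1.39 for *Esrrb*, 1.33 for *Tfcp2l1*, 1.30 for *Klf5*, 1.04 for *Klf2*, 0.94 for *Nr0b1* and 0.79 for *Zfp42*. Where the noDOX and DOX libraries of a number come from 1 starting culture, this is a difference between single cultures. With 2 libraries per group, a check of 1 library as an outlier against its partner was not possible.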

How the results depend on the processing

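Precision is limited by 2 libraries per group and, for *Prdm14*, by low counts. With the replicate block, which follows the pairing of numbers, 1 member passed in *Xist* ΔB+C (*Zfp42*) and 1 in *Xist* ΔA against *Xist* FL without DOX (*Nanog*), and no other member's call for DOX or between lines changed. With the block within each line, 8 passed in *Xist* FL, 6 for *Xist* ΔB+C and 7 for the response of both lines against *Xist* ΔA. With no filter, 3 members differed between replicates rather than 5. Per kilobase, 5 of 10 members kept the place they had by mean CPM. No other planned setting that kept all libraries compared moved these counts by over 1.5 times, and in *Xist* FL and *Xist* ΔB+C with DOX, their response against *Xist* ΔA and the comparisons of *Xist* ΔA without DOX neither other scaling turned a member's direction. Of *Xist* ΔA against *Xist* FL without DOX, *Zfp42* became -0.02 with limma-voom and 0.00 with the block, and *Klf2* -0.03 and -0.02. The replicate difference of *Tbx3* was -0.07 without the *Xist* ΔA libraries, an alternative added after the data had been seen.

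Over the fits that leave out 1 library each, those with the block within each line included, 0 to 8 members passed in *Xist* FL, 0 to 7 in *Xist* ΔB+C, 0 to 8 for the response and 3 to 6 between replicates. On group means 1 library set the direction of several values. In *Xist* FL *Klf5* ranged from -0.46 to 0.64 and *Prdm14* from -0.36 to 0.87, and in *Xist* ΔA the lowest member ranged from -1.93 to 0.21 and the highest from -0.07 to 1.79. In *Xist* ΔB+C the ranges were -0.31 to 1.11 for *Klf2*, -0.14 to 0.36 for *Klf5*, -0.08 to 1.18 for *Prdm14* and -0.14 to 1.63 for *Nr0b1*. For the response they were -0.37 to 1.65 for *Klf2*, -0.14 to 1.95 for *Klf4*, -0.10 to 0.55 for *Klf5*, -0.14 to 1.49 for *Tbx3*, -1.51 to 2.21 for *Prdm14* and -0.29 to 2.11 for *Nr0b1*. Without DOX, *Xist* ΔA against *Xist* FL ranged from -0.73 to 0.65 for *Zfp42*, -0.71 to 0.68 for *Klf2*, -0.18 to 0.74 for *Klf5*, -0.12 to 1.21 for *Tbx3* and -1.11 to 1.38 for *Prdm14*. *Xist* ΔB+C against *Xist* ΔA ranged from -0.65 to 0.72 for *Zfp42*, -0.48 to 0.91 for *Klf2*, -1.33 to 0.10 for *Klf4*, -0.31 to 0.23 for *Klf5*, -0.11 to 0.56 for *Nanog*, -0.73 to 0.61 for *Tbx3* and -1.57 to 0.92 for *Prdm14*.

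Over all genes, 163 passed in *Xist* FL on group means, 574 with DESeq2, 1827 with the block, 3634 with the block within each line and 1 with only the libraries compared. In *Xist* ΔB+C these were 388, 1090, 2887, 4620 and 1, and 1, 4, 3, 20 and 1 in *Xist* ΔA. For the response they were 50, 435, 1454 and 3192. Without DOX, *Xist* ΔA against *Xist* FL gave 1298, 2162 with DESeq2, 4403 with the block and 724 with only those libraries, *Xist* ΔB+C against *Xist* ΔA 882, 1633, 3686 and 270, and *Xist* ΔB+C against *Xist* FL 3, 64, 131 and 0. Leaving out 1 library gave 4 to 228 in *Xist* FL, 47 to 334 in *Xist* ΔB+C, 0 to 96 for the response and, without DOX, 259 to 1495 and 180 to 990 for *Xist* ΔA against *Xist* FL and *Xist* ΔB+C. The cause was not tested.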

Other observations

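Genes of the formative state, through which cells pass after leaving naive pluripotency, did not move as 1 group. On group means *Fgf5*, a growth factor used to mark that state, fell by 1.48 (adjusted p = 0.0434) and *Lef1*, a WNT pathway factor, by 0.70 (adjusted p = 0.0156) with DOX in *Xist* ΔB+C, and 0 of the 7 genes passed in *Xist* FL or *Xist* ΔA. *Fgf5* was at 37.3 and 42.9 CPM without DOX and 16 and 12.6 CPM with DOX in *Xist* ΔB+C, at 43 and 62.4 CPM and 23.4 and 25.8 CPM in *Xist* FL, and at 74.7 and 43.8 CPM and 78.6 and 47 CPM in *Xist* ΔA. With a replicate difference for each line, 3 of the 7 fell and 3 rose in *Xist* FL, and 4 fell and 2 rose in *Xist* ΔB+C, *Dnmt3a* being higher in both (0.74 and 0.58), where 27.5% and 35% of all genes were called. *Eomes*, a mesendoderm factor, fell with DOX on group means by 1.59 (adjusted p = 0.0427) in *Xist* FL and by 1.38 (adjusted p = 0.0431) in *Xist* ΔB+C. Of 8 genes that act in the exit from naive pluripotency, such as *Tcf7l1*, none passed on group means in any line. With a replicate difference for each line, 3 of the 8 rose and 1 fell in *Xist* FL, where 27.5% of all genes were called. In *Xist* ΔB+C 2 rose and 1 fell (35%), and in *Xist* ΔA 0 were called (0.152%).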
